A study of Arabidopsis lyrata with 3 samples.

Results

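In Arabidopsis lyrata, 387 genomic windows were strong for SEPALLATA3 (SEP3) in one chromatin immunoprecipitation library and weak in the other. They were chosen by the deposited scores of both libraries: a replicate 1 window had to score 5 or more and to overlap at least 1 replicate 2 window, the strongest of which scored 2.72 at most. They are called discordant windows here. They make up 0.413% of the 93693 windows of the replicate 1 list and 27.9% of its 1388 windows with a score of 5 or more. All 1388 met at least 1 replicate 2 window. The other strong replicate 1 windows were 612 intermediate windows, with a best replicate 2 score from 2.78 to under 5, and 389 windows strong in both libraries, with a best replicate 2 score of 5 or more. These scores chose the discordant windows, so the scores are a description and support nothing by themselves.

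SEP3 is a MADS-domain protein that acts in floral meristems and in the organs they form. As part of tetramers with other MADS-domain proteins it binds CArG boxes, which are short AT-rich elements, and in A. thaliana its targets include other floral regulators. Chromatin immunoprecipitation sequencing recovers the DNA that an antibody brings down with the protein, and a caller then lists windows of high signal with a summit each.

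Both libraries came from inflorescences of wild-type plants, whose buds covered floral stages 1 to 10 or 11. The antibody was made against a SEP3 peptide from A. thaliana and also recognises the A. lyrata protein, per the series' design text. Vernalisation lasted 7 to 10 weeks for every plant, and bolting followed at 18 to 22 °C under long days. In the cold, replicate 1 plants had 8 °C and 16 h of light a day, while replicate 2 plants had 12 h of light, 8 °C in the day and 4 °C in the night. With 1 ChIP library per cold treatment, the treatment and the library cannot be told apart, and no p-value was taken, since windows of 1 library are not replicates. An input DNA library served as control. It came from plants with the cold treatment of replicate 1 and has no window list here. The samples hold no input library from the cold treatment of replicate 2, and read depth is unknown.

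The replicate 1 scores of the discordant windows ran from 5 to 17.79 with a median of 5.64, and the scores of their best replicate 2 partners from 1.01 to 2.72 with a median of 2.15. The intermediate windows had medians of 6.28 in replicate 1 and 3.70 in replicate 2, and the windows strong in both had 9.67 and 7.36. The score is the authors' own, with no formula given in the sources used, and is not known to share a scale between the lists. The median replicate 1 score of the discordant windows was thus below those of the other 2 strong sets, and 49 of them scored 8 or more. Within the replicate 1 list of 93693 windows they all ranked high, from 53 to 1356 with a median rank of 995. In the replicate 2 list of 64504 windows, their partners ranked from 2094 to 51862 with a median rank of 4183, and 32 lay beyond rank 20000. Scores ran lower over that whole list, with a median of 1.20 and an upper quartile of 1.44, against 1.42 and 1.93 in the replicate 1 list. The lower quartile of the partner scores was 1.75. Most partners were therefore weak by the limit of the rule, not within their own list. Each discordant window had a partner of its own, 387 in all.

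**Figure D1:**
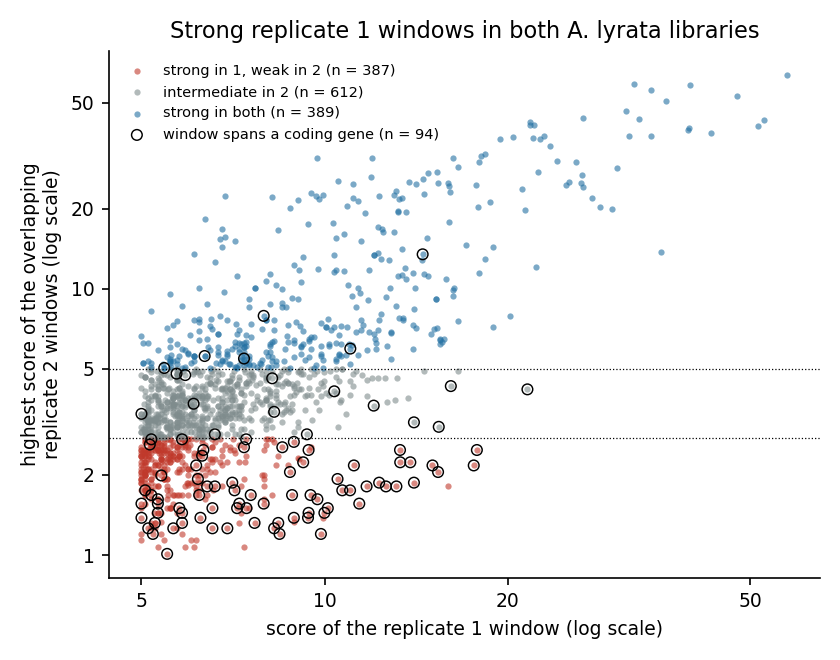
Score of each of the 1388 strong replicate 1 windows (x axis, log scale) against the highest score of its overlapping replicate 2 windows (y axis, log scale). Colours mark the 3 sets, dotted lines the replicate 2 limits of the sets, and open circles the 94 windows that span a whole protein-coding gene, of which 74 are discordant.

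Many scores lay close to the limits. At the replicate 1 limit, 24 discordant windows scored exactly 5, and the nearest windows outside scored 4.98, 4.96 and 4.94. At the replicate 2 limit, 26 discordant windows had a partner score of 2.72, and 22 windows just outside had 2.78. The lowest partner score, 1.01, belonged to a window on scaffold 5 from 18413008 to 18414794 that scored 5.51 in replicate 1. Another on scaffold 5, from 10806338 to 10807942, scored 7.37 in replicate 1 and 1.07 in replicate 2. Scores of 1.07 were also the best in replicate 2 for windows on scaffold 1 from 25539397 to 25540391, on scaffold 2 from 17252744 to 17253846 and on scaffold 4 from 17879828 to 17880386. In the opposite direction, 32 of the 510 replicate 2 windows with a score of 5 or more had a best replicate 1 score under the limit that replicate 2 partners had to stay below, and 34 met no replicate 1 window. All coordinates are on the build that the file names call Araly1.

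The discordant windows were wide in replicate 1. Their median width in replicate 1 was 1672 bp, against 1226 bp for intermediate windows and 864 bp for windows strong in both. Their partners in replicate 2 had a median width of 625 bp, against 696.5 bp and 695 bp. The replicate 1 window was a median of 2.25 times as wide as its partner, against 1.56 and 1.17 times. The partners of all 3 sets were therefore of similar width, and the sets differed in the width of the replicate 1 window. Width comes from the same lists as the score and is given as a description.

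Of the 387 discordant windows, 164 met 1 replicate 2 window, 101 met 2 and 63 met 3. A further 59 met 4 or more, or 15.2% (95% Wilson interval 12.0 to 19.2%), against 4.90% (3.46 to 6.91%) of the intermediate windows. The most was 9. This count went with width. At 1500 bp or less, a single replicate 2 window was met by 79.7% (73.0 to 85.0%) of the discordant windows, against 81.5% (77.3 to 85.0%) of the intermediate windows and 92.2% (88.6 to 94.7%) of those strong in both. Between 2000 and 3000 bp, 4 or more were met by 10.8% (5.81 to 19.3%), against 13.1% (7.47 to 21.9%) and 23.8% (13.5 to 38.5%). Over 3000 bp it was 65.3% (54.0 to 75.1%), against 44.4% (29.5 to 60.4%) and 43.8% (23.1 to 66.8%). The intervals of the 3 sets overlap in both of these width ranges. Without regard to width, the replicate 2 windows together covered a median of 56.5% of the length of a discordant window, against 68.8% for intermediate windows and 83.5% for windows strong in both. The Wilson intervals cover counting error over windows only.

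The summits of the libraries lay farther apart in the discordant windows. Summits come from the same lists as the scores, so the distance is given as a description. Over the discordant windows the distance went with the partner score, which the rule used (Spearman correlation -0.3245). The median distance between the replicate 1 summit and that of its partner was 82 bp, against 40 bp for intermediate windows and 23 bp for windows strong in both. Summits were within 50 bp of each other in 124 discordant windows (32.0%, 27.6 to 36.8%), against 362 of 612 (59.2%, 55.2 to 63.0%) intermediate windows. They were over 500 bp apart in 71 discordant windows (18.3%, 14.8 to 22.5%), against 18 intermediate windows (2.94%, 1.87 to 4.60%). The replicate 1 summit lay inside some replicate 2 window in 340 of the 387 (87.9%, 84.2 to 90.7%). This share was lower than in the other sets, with 610 of 612 intermediate windows (99.7%, 98.8 to 99.9%) and 388 of 389 strong in both (99.7%, 98.6 to 99.95%). At 2000 bp or less it was 221 of 229 discordant windows (96.5%, 93.3 to 98.2%), against 492 of 492 and 330 of 331. Over 3000 bp it was 48 of 75 (64%, 52.7 to 73.9%), against 34 of 36 (94.4%, 81.9 to 98.5%) and 16 of 16.

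**Figure D2:**
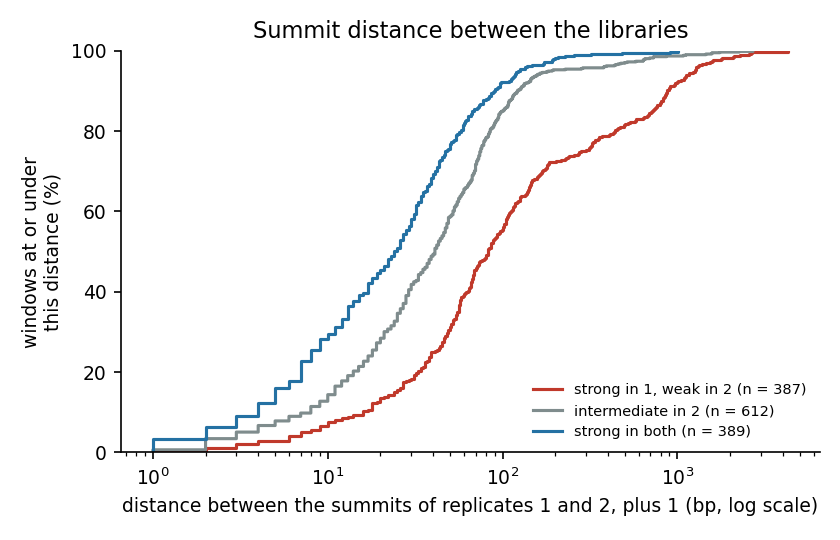
Cumulative share of windows (y axis, %) by the distance between the replicate 1 summit and the summit of the best replicate 2 partner (x axis, bp plus 1, log scale), 1 line per set. The line of the discordant windows lies to the right of the others, with medians of 82, 40 and 23 bp, and has a long tail beyond 500 bp.

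The distance went with width in the discordant windows, but the sets also differed at like width. In the 229 discordant windows of 2000 bp or less the median distance was 56 bp, against 36 bp for intermediate windows and 23 bp for windows strong in both. Of these 229, 8 (3.49%, 1.78 to 6.74%) had summits over 500 bp apart. At 1500 bp or less, summits were within 50 bp in 44.8% (37.5 to 52.2%) of the discordant windows. The shares were 65.2% (60.4 to 69.8%) for intermediate windows and 77% (71.8 to 81.4%) for windows strong in both. In the 158 discordant windows over 2000 bp the median was 289 bp, and 63 (39.9%, 32.6 to 47.7%) had summits over 500 bp apart. Between 2000 and 3000 bp that distance was exceeded in 29 of 83 discordant windows (34.9%, 25.6 to 45.7%), against 3 of 84 intermediate windows (3.57%, 1.22 to 9.98%) and 0 of 42 strong in both (upper Wilson limit 8.38%). Over 3000 bp it was 34 of 75 (45.3%, 34.6 to 56.5%), against 10 of 36 (27.8%, 15.9 to 44.0%) and 1 of 16 (6.25%, 1.11 to 28.3%), where the intervals of the discordant and intermediate windows overlap. The windows strong in both kept a median distance of 23.5 bp when wider than 2000 bp.

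Positions relative to genes were not used by the rule. Of the 387 discordant summits in replicate 1, 128 lay inside an annotated gene (33.1%, 28.6 to 37.9%), against 127 of 612 intermediate summits (20.8%, 17.7 to 24.1%) and 79 of 389 summits strong in both (20.3%, 16.6 to 24.6%). Of these 128 summits, each counted for the first listed gene that held it, 122 were in protein-coding genes, 3 in long non-coding RNA genes and 3 in pseudogenes. Another 152 discordant summits (39.3%, 34.5 to 44.2%) were outside genes but no more than 1000 bp from one, against 44.1% and 31.6% in the other sets. A distance of over 3000 bp to the nearest gene was found for 36 (9.30%, 6.80 to 12.6%), against 11.8% (9.45 to 14.6%) and 22.1% (18.3 to 26.5%). The gene table names no scaffolds, which were inferred from its order, and gives no strand, so upstream and downstream were not separated.

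The share inside genes was similar in the 3 sets for narrow windows and differed for wide ones. For windows of 2000 bp or less, summits lay inside genes in 50 of 229 discordant windows (21.8%, 17.0 to 27.6%), against 107 of 492 intermediate windows (21.7%, 18.3 to 25.6%) and 69 of 331 windows strong in both (20.8%, 16.8 to 25.5%). For windows over 2000 bp the counts were 78 of 158 discordant windows (49.4%, 41.7 to 57.1%), against 20 of 120 (16.7%, 11.1 to 24.3%) and 10 of 58 (17.2%, 9.64 to 28.9%). The split at this width was chosen after the values were seen.

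Many discordant windows contained a whole gene. In 74 of the 387 windows (19.1%, 15.5 to 23.3%) the window in replicate 1 ran past both ends of a protein-coding gene, against 14 of 612 intermediate windows (2.29%, 1.37 to 3.80%) and 6 of 389 windows strong in both (1.54%, 0.709 to 3.32%). Of the 94 strong replicate 1 windows that spanned a gene in this way, 74 were discordant (78.7%, 69.4 to 85.8%), while discordant windows made up 27.9% of all strong windows. These shares take no account of width, and 70 of the 74 were wider than 2000 bp. The measure was chosen after the values were seen.

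Among the discordant windows, those of higher replicate 1 score spanned genes in larger shares. The share was 8.18% (4.84 to 13.5%) of the 159 windows with scores from 5 to under 5.5, 10.2% (6.08 to 16.7%) of the 127 from 5.5 to under 6.5 and 26.9% (16.8 to 40.2%) of the 52 from 6.5 to under 8. It was 69.4% (55.5 to 80.5%), or 34 of 49, at scores of 8 or more. At the same scores of 8 or more it was 9 of 125 (7.20%, 3.83 to 13.1%) for intermediate windows and 2 of 256 (0.781%, 0.214 to 2.80%) for windows strong in both. At these scores the sets also differed in width, with 83.7% of the discordant windows over 2000 bp, against 24% of the intermediate windows and 13.7% of those strong in both. Among windows with both a score of 8 or more and a width over 2000 bp, a split added after the values were seen, 33 of 41 discordant windows spanned a gene (80.5%, 66.0 to 89.8%), against 8 of 30 (26.7%, 14.2 to 44.5%) and 2 of 35 (5.71%, 1.58 to 18.6%). Those of 2000 bp or less did so in 1 of 8 (12.5%, 2.24 to 47.1%), against 1 of 95 (1.05%, 0.186 to 5.72%) and 0 of 221 (upper Wilson limit 1.71%). No test was run on these differences.

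**Figure D3:**
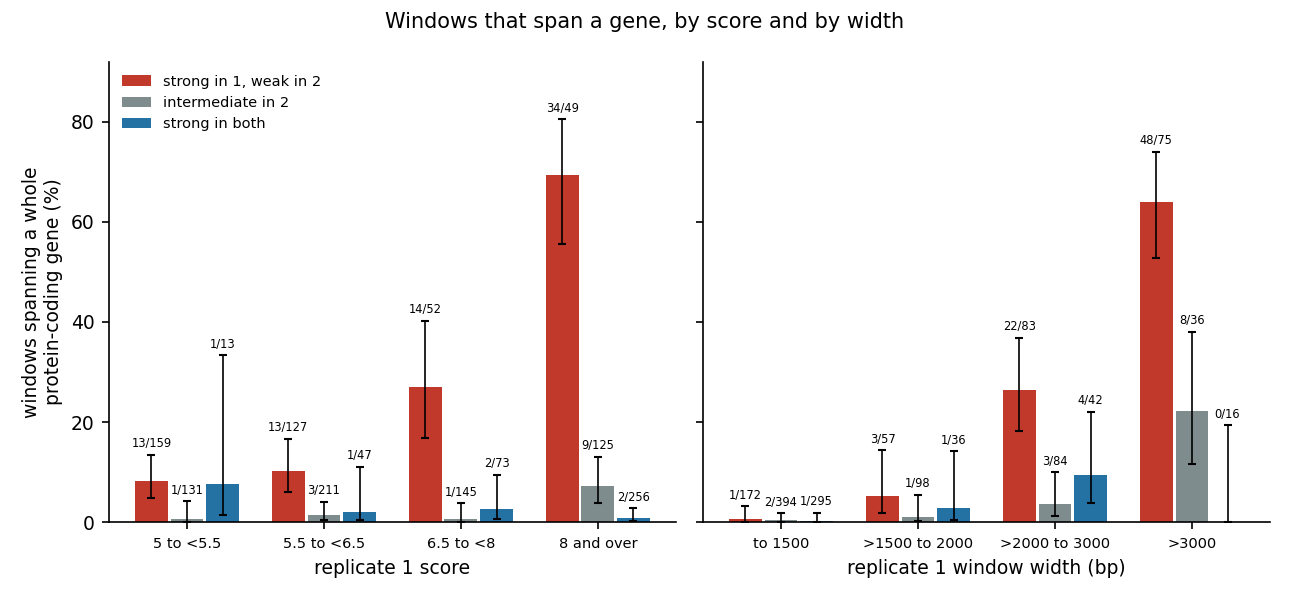
Share of windows that span a whole protein-coding gene (y axis, %), by replicate 1 score (left) and by replicate 1 window width in bp (right), for discordant, intermediate and strong-in-both windows. Bars start at 0, error bars are 95% Wilson intervals and the fractions over the bars are windows spanning a gene of all windows. The discordant bars reach 69.4% at scores of 8 or more and 64% at widths over 3000 bp.

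A wide window can hold a gene more readily than a narrow one, so the sets were also compared at like widths. At 1500 bp or less, 1 of 172 discordant windows spanned a gene (0.581%), against 2 of 394 intermediate windows (0.508%) and 1 of 295 strong in both (0.339%). From 1500 to 2000 bp it was 3 of 57 (5.26%, 1.81 to 14.4%), against 1 of 98 (1.02%, 0.18 to 5.6%) and 1 of 36 (2.78%, 0.492 to 14.2%). The intervals of the 3 sets overlap in both of these ranges. Between 2000 and 3000 bp, 22 of 83 discordant windows spanned a gene (26.5%, 18.2 to 36.9%), against 3 of 84 intermediate windows (3.57%, 1.22 to 9.98%) and 4 of 42 strong in both (9.52%, 3.77 to 22.1%). There the intervals of the discordant and strong-in-both windows overlap. Over 3000 bp it was 48 of 75 discordant windows (64%, 52.7 to 73.9%), against 8 of 36 (22.2%, 11.7 to 38.1%) and 0 of 16 (upper Wilson limit 19.4%). In the whole lists, without regard to width, 265 of 93693 replicate 1 windows and 16 of 64504 replicate 2 windows spanned a protein-coding gene. The lists differ in width, and over 2000 bp the numbers were 176 of 1789 windows in replicate 1 (9.84%, 8.54 to 11.3%) and 1 of 33 in replicate 2 (3.03%, 0.537 to 15.3%), with overlapping intervals.

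Of the 10 discordant windows of highest replicate 1 score, 9 spanned a protein-coding gene, and all 10 were wider than 2000 bp. Among all 387 the share was 19.1%, so these 10 show the highest scores only. The strongest, at scaffold 1 between 3463138 and 3465649, reached 17.79 in replicate 1 and spanned LOC9328542, while its 2 replicate 2 windows scored at most 2.48. The next, at scaffold 7 between 4043475 and 4046768, reached 17.58 in replicate 1 and 2.17 in replicate 2. It spanned LOC9305369, a gene of 1412 bp, and extended 976 bp beyond it on one side and 906 bp on the other. The exception among the 10 occupied 18571058 to 18578356 of scaffold 2, with a score of 15.94 in replicate 1 and 1.81 in replicate 2. At 7299 bp it was the widest discordant window and lay to 99.2% within genes. Its summit was in the long non-coding RNA gene LOC9325301, and 9 separate replicate 2 windows covered 25% of it.

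The window that spanned LOC9324995 (scaffold 2, 15864388 to 15866643) had 15.36 in replicate 1 and 2.05 in replicate 2. A single replicate 2 window covered 87.7% of it, yet the summits were 675 bp apart. The window that spanned LOC9315903 (scaffold 4, 19454514 to 19458352) had 15.04 in replicate 1 and 2.17 in replicate 2. The summit fell in that gene, 963 bp from that of its partner. The window that spanned LOC9318684 (scaffold 3, 3732580 to 3734932) had 14.02 in replicate 1 and 1.87 in replicate 2, and the pseudogene LOC9320798 overlaps that gene at the summit. The window that spanned LOC9307564 (scaffold 6, 4756116 to 4758926) had 13.83 in replicate 1 and 2.23 in replicate 2, but its summit lay 252 bp outside the gene. These 4 windows differed in how much of them replicate 2 covered, from 49.4% to 87.7%, while the partner scores stayed between 1.87 and 2.23.

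The window that spanned LOC9326361 (scaffold 1, 7901602 to 7905650) had 13.31 in replicate 1 and 2.23 in replicate 2 and met 6 replicate 2 windows. The window that spanned LOC9329049, a gene of 738 bp (scaffold 1, 7642221 to 7645253), had 13.30 in replicate 1 and 2.48 in replicate 2. The last of the 10 spanned LOC9325041 (scaffold 2, 16294701 to 16297446) and had 13.12 in replicate 1 and 1.81 in replicate 2. In 6 of the 10 windows the summits of the libraries were over 500 bp apart. The gene table gives no function for any of these genes.

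**Figure D4:**
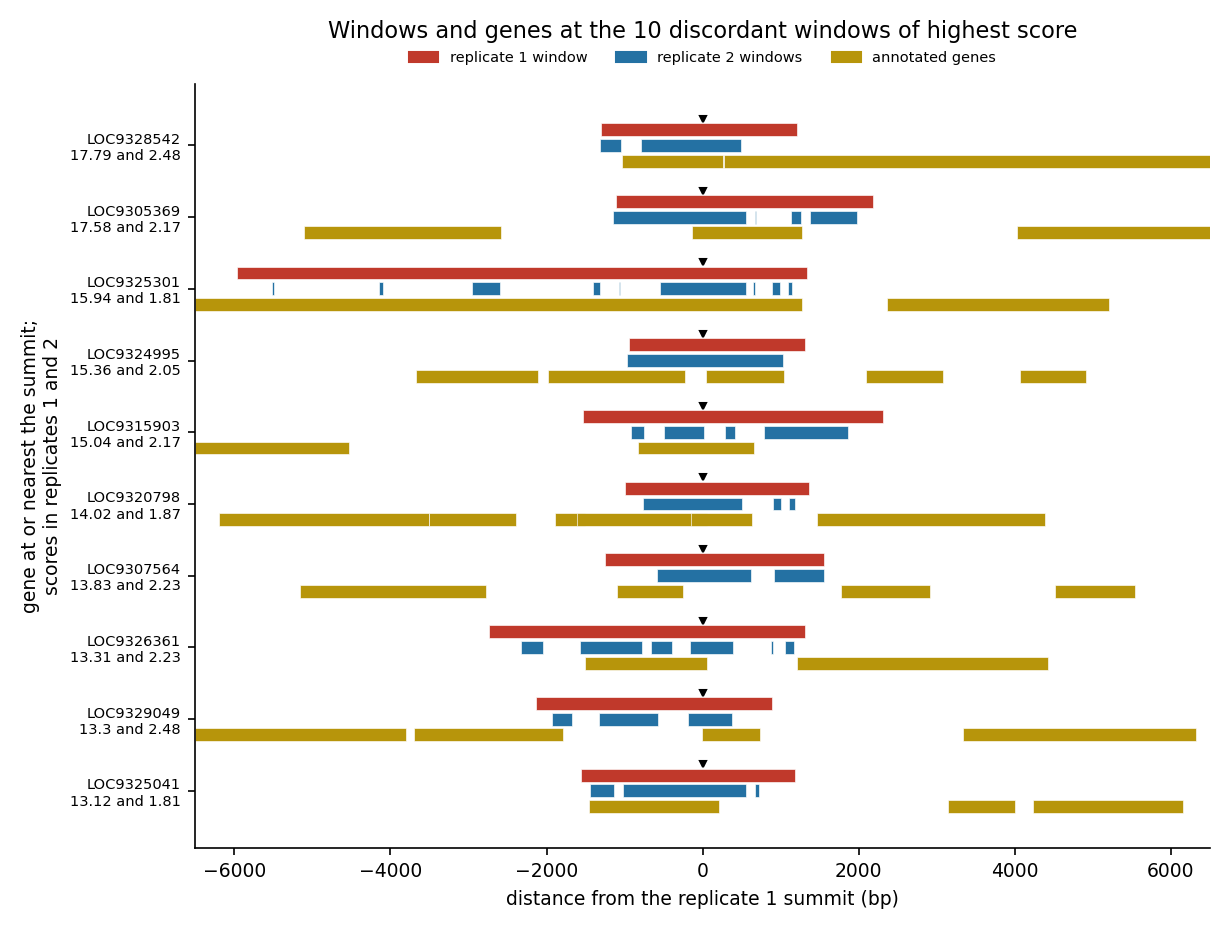
The 10 discordant windows of highest replicate 1 score, from top to bottom, each drawn by distance from its replicate 1 summit (x axis, bp; triangle at 0): replicate 1 window, replicate 2 windows and annotated genes. Labels give the gene at or nearest the summit and the scores in replicates 1 and 2; overlapping genes share a line and genes are cut at the frame. In 9 of the 10 the replicate 1 window extends past both ends of a protein-coding gene.

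The 74 gene-spanning windows held 76 protein-coding genes, 2 windows holding 2 genes each. The genes had a median length of 1430.5 bp, from 254 to 5012 bp, against 2125 bp for the 29018 protein-coding genes of the 9 scaffolds, and only genes shorter than a window can be spanned. The windows ran past the genes by a median of 716 bp at the end of lower coordinate and 841 bp at the other, and at 60 of the 76 genes by at least 200 bp on both sides. Their replicate 1 summit lay in the spanned gene in 50 of 74 windows, and the summit of the replicate 2 partner did so in 34. Replicate 2 windows covered a median of 34.1% of the gene and 34.1% of the flanks within the window, and the gene was the less covered in 35 of the 74. The 2 medians were equal. In these windows the median scores were 7.50 in replicate 1 and 1.68 in replicate 2, and the median summit distance was 506 bp.

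The 313 discordant windows that spanned no protein-coding gene were closer in form to the intermediate windows. Their median width was 1417 bp, their median scores were 5.51 in replicate 1 and 2.23 in replicate 2, and their summits were a median of 65 bp apart. Their summits lay inside genes in 73 cases (23.3%, 19.0 to 28.3%). Among all discordant windows with a single partner, 164 in number, the median summit distance was 54 bp, against 38 bp for the 381 intermediate and 25 bp for the 295 strong-in-both windows of that kind. A strong example is the window on scaffold 7 from 6782756 to 6783337, which was chosen after its values were seen. It was 582 bp wide, scored 8.39 in replicate 1 and 2.36 in replicate 2, and had summits 99 bp apart.

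The discordant windows were spread over all scaffolds. They made up from 23.7% (18.4 to 30.1%) of the strong windows of scaffold 6 to 30.6% (23.4 to 38.8%) of those of scaffold 8, with overlapping intervals, and scaffold 9 held 2 of 5. A window strong in both libraries had its summit within 10000 bp in 16 cases (4.13%, 2.56 to 6.61%), against 27 of 612 intermediate windows (4.41%, 3.05 to 6.34%) and 30 of the 389 windows strong in both (7.71%, 5.46 to 10.8%). The intervals overlap.

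Another discordant summit lay within 10000 bp of 26 of the 387 (6.72%, 4.63 to 9.66%). The same held for 32 of 612 intermediate windows (5.23%, 3.73 to 7.29%). It also held for 17 of 389 windows strong in both (4.37%, upper Wilson limit 6.89%). The intervals overlap, so such neighbours were not shown to be particular to the discordant windows. The intervals treat windows as independent, although both windows of a discordant pair were counted. The 26 discordant windows formed 13 pairs. The 3 described here were chosen after their values were seen. On scaffold 4, windows from 20197517 to 20201574 and from 20202116 to 20204641 were separated by 541 bp. They scored 8.43 and 11.01 in replicate 1 and 1.20 and 1.75 in replicate 2, and each spanned a gene of its own, LOC9317841 and LOC9317842. On scaffold 5, windows from 16293572 to 16294761 and from 16294913 to 16296916 were 151 bp apart and both had LOC9313956 as the gene at or nearest the summit. They scored 5.19 and 9.93 in replicate 1 and 1.93 and 1.38 in replicate 2. On scaffold 6, windows from 5965256 to 5969088 and from 5969238 to 5971459 lay 149 bp apart, likewise with a common gene, LOC9307698, with 5.09 and 5.96 in replicate 1 and 2.11 in replicate 2 for each. The remaining 10 pairs were 480 bp or more apart.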

How the data were processed

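The authors deposited 1 window list per ChIP library, with scaffold, start, end, summit and a score per the file headers; no source used here gives the formula of the score, the aligner or the caller. CASAVA is named in the submitters' processing notes, with no version. Windows were joined with Python 3.11.15, pandas 2.3.3 and NumPy 2.4.6 on an overlap of at least 1 bp, and the functions were tested on simulated windows. The partner is the overlapping replicate 2 window of highest score. Shares carry 95% Wilson intervals (SciPy 1.17.1). Members, sets and measures were chosen with earlier results of these data known. The rule for named windows took the 10 of highest replicate 1 score, the 5 of lowest partner score, those at the limits, given by their scores only, and those within 10000 bp of each other, of which 3 pairs are given. A single narrow window on scaffold 7 was named outside it. A word list for gene descriptions was not applied, since the gene table holds none.

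Genes are from the RefSeq table of A. lyrata assembly v.1.0, taken to be the build the files call Araly1. It leaves the scaffolds unnamed, and its first 9 blocks of rising start, 33239 genes, were taken as scaffolds 1 to 9. Each block ended at most 17369 bp from the end of the last replicate 1 window on its scaffold and at most 31587 bp from that of the last replicate 2 window. On scaffolds 1 to 8, 19.2% of the members spanned a protein-coding gene of their own block, and 4.42 to 8.05% did so with the genes of the other 7 blocks. The CArG box and the A. thaliana list were not analysed here.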

Additional observations from a re-analysis of the deposited data

How the results depend on the processing

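The alternatives for gene spanning were added after the data were seen. The number of discordant windows was 1189 with a replicate 1 score of 4 or more, 78 with 7 or more, 162 with a replicate 2 score under 2 and 630 with one under 3.5, since the limits fix it. With a replicate 1 score of 4 or more, 24.7% of summits lay inside genes and 8.66% of windows spanned a coding gene. With 7 or more, the median summit distance was 289 bp, the width ratio 3.92, the share inside genes 56.4%, the share within 1000 bp of a gene end 30.8% and the share spanning a gene 56.4%. With a replicate 2 score under 2 these were 126 bp, 3.94, 45.1%, 33.3% and 32.7%. With one under 3.5 the distance was 66 bp, the ratio 1.95, the share inside genes 27.1% and the share spanning 12.7%. Under each of these 4 limits the windows at or over the replicate 2 limit spanned a gene in 1.71 to 3.34%. At the partner summit, 27.1% lay inside genes and 45.5% within 1000 bp. The share near a gene end was 26.1% within 500 bp and 57.6% within 3000 bp. A window strong in both lay within 5000 bp in 1.55% and within 20000 bp in 8.27%. Gene spanning was 15.0% with at least 200 bp beyond both ends and 44.3% for windows over 2000 bp. At a score of 8 or more it was 80.5% over 2000 bp and 12.5% at 2000 bp or less. The score limits fix the number of windows, and the distance limits move their own shares, by construction. The cause of the other shifts was not tested. An overlap of 50% of the shorter window gave 389 discordant windows, and a partner with the nearest summit gave 393. Neither setting moved any of the other results beyond its interval, and the number of windows has no interval.

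The members need both libraries, so leaving out a replicate gives no value. No paired analysis was possible because no window list is held here for the input library, which carries the same number as replicate 1. The CArG box settings were not run. Read depth is unknown, so whether the libraries differ in depth, and whether the scores depend on it, cannot be told.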
